A study of Ovis aries with 56 samples.

Results

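Cytokines and chemokines are small secreted proteins by which cells of the immune system and of the brain signal to each other. In the brain they come from neurons, astrocytes, microglia and the cells of blood vessels as well as from immune cells, and they act in development and on synapses as well as in inflammation. This account follows 6 genes of this kind: the chemokine CXCL1, the chemokine receptor CCR3, the cytokines IL6 and MIF, the tumour necrosis factor family ligand TNFSF13B and the growth factor TGFB2. All non-control probes that the array annotation assigns to them were taken, which gave 9 probes of the 15008 distinct probes. The 6 genes stand among 838 that a probe could be named for. CXCL1 has 2 probes, which the files list under its older name GRO, and CCR3 and TNFSF13B have 2 each. The genes were selected on the group differences of their log2 ratios in these same arrays, so their differences are descriptions. The adjusted p-values printed beside some of them come from the fit over all probes, do not account for that selection, and support nothing on their own.

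The RNA came from the left or right amygdala, a brain region for emotion and social behaviour, of 50-week-old Scottish Mule Texel cross sheep. The 30 animals were same-sex twins in 15 pairs. GnRHa animals carried 3.6 mg implants of goserelin, which acts on the receptor of gonadotropin-releasing hormone (GnRH) and, given continuously, stops gonadotropin release. The implants were renewed every 4 weeks and begun at 8 weeks in males but only at 28 weeks in females, and the other twin of a pair was the untreated control. In GnRHa animals sex and the length of treatment therefore cannot be told apart. Each array set 1 side of 1 animal against a pool of amygdala RNA from both sexes and both sides, and 7 arrays were made for each of the 8 groups.

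Values are log2 ratios of the sample to that pool, so a value of 0 is the level of the pool and 2 genes cannot be ranked by them. That the ratio is sample over pool is likely rather than stated by the labels, and its basis is given with the processing. Of the 56 arrays, 41 from 25 animals were used. In the other 15 the added spike-in RNAs did not follow their ratios on the rest. On 3 arrays (male GnRHa left 6 and right 6, which are 1 animal, and female control right 7) the spike-in ratios ran in the opposite direction, and their values were turned in sign and their dyes taken as the reverse of the labels. The control males kept 5 left and 4 right arrays, the GnRHa males 6 of each side and every female group 5, and their number limits the precision. All 10 female left arrays used carried the sample in Cy3 and all 10 female right arrays in Cy5 (1 of these, female control right 7, by the reversed dye), so that side and dye cannot be told apart within females. Neuron and oligodendrocyte markers (10 and 6 genes) had 0 tested probes under these names, so the labelled tissue was not checked against them.

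The probes fall into 2 sorts by how bright they are, and this decides how finely each gene was measured. CXCL1, MIF and TGFB2 had a value on all 41 arrays, with a mean log2 brightness in the authors' deposited table of 10.7 and 10.4 for the 2 CXCL1 probes, 9.40 for MIF and 7.46 for TGFB2. The probes of CCR3 (5.55 and 5.49), TNFSF13B (5.59 and 5.52) and IL6 (5.17) were dim in the same table. IL6 had no value on 19 arrays, CCR3 on 4 and 9, and TNFSF13B on 7 and 14. Values of the dim probes were also coarse. Each of the 22 IL6 values was identical to that of other probes on the same array, a median of 140.5 others, and the same held for all 34 values of TNFSF13B probe 1 (median 97 others). Shared values were common on these arrays: over all probes, 60.2% to 71.2% of the values of an array were shared with at least 1 other probe (median 66.9%). CCR3 probe 2 and TNFSF13B probe 2, which belong to unrelated genes, carried the same value on 3 of the 22 arrays that measured both. These were the 3 female control right arrays with both values, and on the rest the 2 probes differed. None of the CXCL1 or MIF values and 1 of the 41 TGFB2 values was shared in this way. The fitted difference between the dyes followed the same split: Cy5 stood above Cy3 by 1.80 for IL6, by 1.14 and 0.88 for the CCR3 probes and by 0.77 for TNFSF13B probe 1, against -0.07 for TGFB2, 0.07 for MIF and 0.10 and 0.13 for CXCL1 on the log2 scale. The dye difference rests on male arrays, since each female group held 1 dye.

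**Figure D1:**
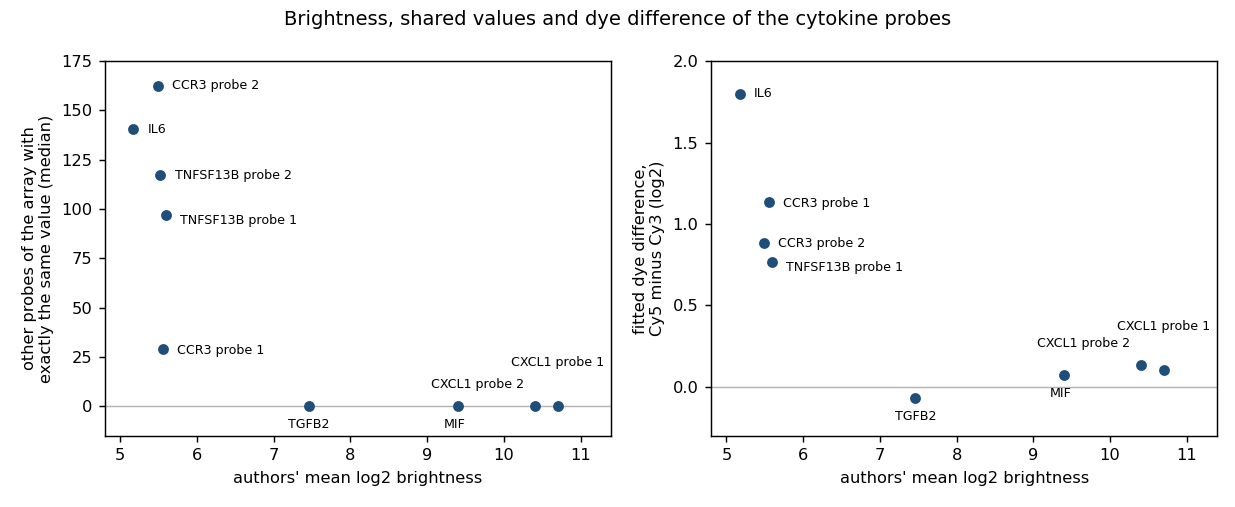
Each point is 1 cytokine probe, with the authors' mean log2 brightness on the x axis. The left panel gives the median number of other probes with exactly the same value on an array and the right panel the fitted log2 difference between Cy5 and Cy3 samples; the CXCL1, MIF and TGFB2 probes lie near 0 in both panels, and the dim probes lie above them.

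CXCL1 is a chemokine that attracts neutrophils through the receptor CXCR2. Its mean was lowest in the control males, whose arrays overlapped those of the other animals. In probe 1 the 5 male control left arrays read -0.82, -0.43, -1.13, -1.33 and -0.74 and the 4 male control right arrays -0.39, -0.86, -1.20 and -0.22. All 9 thus lay below the pool. The female control left arrays read -0.22, 0.34, 0.33, 0.46 and -0.23, and the female control right arrays -0.31, -0.27, -0.46, 0.88 and -0.38. On the left the 5 female and 5 male control arrays did not overlap, while on the right they did, with a difference of 0.59 ± 0.27 there (limma's adjusted p = 0.509). In control right animals 0 of the 8 cytokine probes passed an adjusted p of 0.05, against 0.0773% of all probes. Female control right 4, at 0.88, stood far above the other 4 arrays of its group, which lay between -0.46 and -0.27.

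In GnRHa animals of both sexes CXCL1 lay around the level of the control females. Male GnRHa left arrays ran from -0.64 through a median of -0.06 to 0.71, and male GnRHa right arrays from -0.65 through -0.03 to 0.55. All 12 were above the mean of the control males, -0.79 ± 0.39 (SD, n = 9), and their mean was -0.04 ± 0.47 (SD, n = 12). Every n over both sides counts arrays, and the left and right arrays of 1 animal are not independent. Female GnRHa left arrays read -0.34, -0.25, -0.23, -0.06 and -0.06, and female GnRHa right arrays -0.28, 0.18, 0.24, -0.08 and 0.22, with a mean over both sides of -0.07 ± 0.22 (SD, n = 10). The mean of the 10 female control arrays was 0.01 ± 0.45 (SD). Ordered by group mean, the 6 other groups lay within 0.13 to -0.19 with every step between neighbours smaller than their SD. The step from there to male control right, 0.48, exceeded the larger SD of both groups, 0.45.

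Differences were fitted with limma in 1 model with the 8 group means, the dye of the sample and the animal as a random block. Females minus males without GnRHa gave a log2 difference of 0.80 ± 0.20 (SE) for probe 1 and 0.85 ± 0.18 for probe 2, about 1.74-fold and 1.80-fold higher. GnRHa minus control in males gave 0.73 ± 0.19 and 0.71 ± 0.18. GnRHa minus control in females gave -0.08 ± 0.19 (limma's adjusted p = 1.00), and females minus males with GnRHa gave -0.01 ± 0.18 (limma's adjusted p = 0.990). The interaction, that is the GnRHa effect of females less that of males, was -0.81 ± 0.27 for probe 1 and -0.87 ± 0.25 for probe 2. These comparisons share the control males, so a low level there enters the sex difference without GnRHa, the effect in males and their interaction alike.

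The 2 CXCL1 probes repeat each other closely and are not separate evidence of an animal's level. Over 41 arrays they differed by a median of 0.06 and by at most 0.24, and the SD among arrays of a group had a median of 0.38 for probe 1. Of the 8 cytokine probes tested, these 2 were past an adjusted p of 0.05 in the sex difference without GnRHa, where 1.04% of all 12930 probes were. This count was known when the genes were chosen, and nothing is read from it. The count fell to 0 with all 56 columns as labelled and with only the 4 control groups in the fit, and to 1 under scale normalization between arrays. It fell to 0 without any 1 of male control right 2 or 3, male control left 4 or female control left 6, and to 1 without male control left 3, female control right 2, female control left 5 or female GnRHa left 6. Without male control left 1 or female control left 7 it was 3, as TGFB2 passed as well.

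Twins on the same side give a second reading of the GnRHa effect in males. Of 6 such comparisons with both arrays used, CXCL1 was higher in the GnRHa twin in 5, by 0.30, 0.48, 0.52, 0.52 and 0.69, and lower in the other, by -0.26. The comparisons at 0.30 and 0.69 had the same dye in both twins and the others did not. In females the differences were 0.60, 0.19 and 0.17 in 3 comparisons and -0.12, -0.52, -0.56, -0.59 and -0.70 in the other 5. A majority of the male comparisons thus showed the direction of the group means, and the female comparisons went both ways. These comparisons are drawn from the arrays already compared. In both sexes some pairs are counted on both sides, so the comparisons are not all separate pairs.

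In males with GnRHa, 0 of the 8 cytokine probes were past the threshold, with a background of 0% of all probes. At an unadjusted p below 0.05 there were 3, both CXCL1 probes and TGFB2, against 11.7% of all probes. The genes were chosen on these same differences, so nothing is read from this count or from the other counts at an unadjusted p. With the twin pair in place of the animal as the random block, CXCL1 probe 2 passed (1 of 8), and with the twin pair as a fixed block none of the 8 did, with a difference of 0.46 for probe 1. Both CXCL1 probes passed without female control right 4, without male control right 5 and on left arrays of Cy3 and right arrays of Cy5 only, where probe 1 stood at 0.91. Probe 2 alone passed without male control left 5 and with array weights. The value for probe 1 was 0.67 without the 3 turned columns and 0.43 with all 56 columns as labelled. In females with GnRHa, 0 of 8 probes passed against 0% of all probes, and 1 was at an unadjusted p below 0.05, against 3.73% of all probes.

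A lower ratio in whole tissue can come from fewer cells of a type or from less RNA per cell, and the arrays cannot tell these apart. The neutrophil and B cell markers (9 and 5 genes) had 0 tested members. Of 11 markers of microglia and macrophages 5 were tested. All 5 stood higher in females than in males without GnRHa, by a median log2 difference of 0.11, and 0 of them passed the threshold. The mean log2 ratio of these 5 markers per array ran from -0.46 to -0.00 in male control left, -0.30 to -0.02 in male control right, -0.45 to 0.87 in female control left and -0.20 to 0.44 in female control right. Of the T cell markers 3 of 4 stood higher in females without GnRHa, with a median of 0.32, of the astrocyte markers 3 of 4 (0.17) and of the endothelial markers 1 of 3 (-0.11), and 0 of these passed. The part of these cells in the CXCL1 difference was not tested. With GnRHa, 3 of the 5 microglial markers were positive and 2 negative in females minus males, with a median of 0.11. The 1 that passed was CTSS, a lysosomal protease of microglia, at 0.98 ± 0.18 (limma's adjusted p = 0.0111), where 0.155% of all probes passed.

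**Figure D2:**
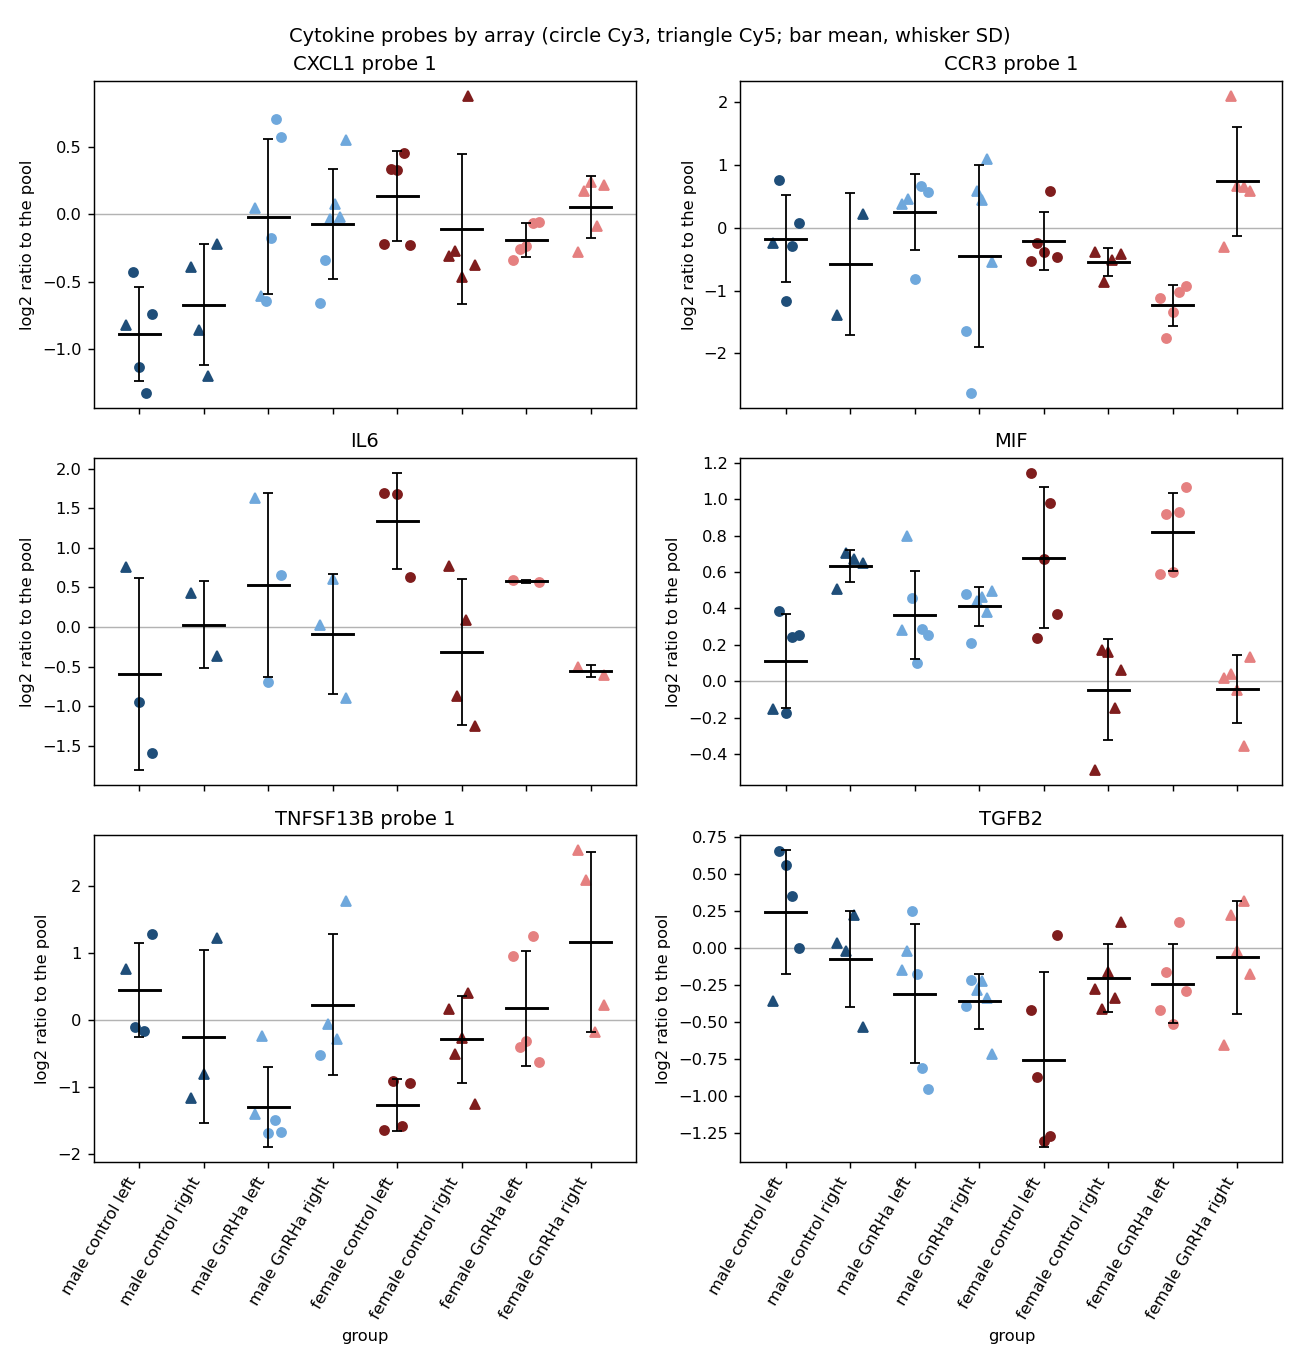
Log2 ratio to the pool (y axis) of the brightest probe of each gene on each array, by group (x axis), with circles for samples in Cy3, triangles for Cy5, a bar for the group mean and a whisker for its SD. All 9 control male arrays lie below 0 for CXCL1, and MIF lies higher on the left than on the right in females.

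CCR3 is the receptor for eotaxins, best known from eosinophils. Its 2 probes did not give 1 picture. Over the 30 arrays that measured both, they differed by a median of 0.79 and by up to 4.08, and had the same sign on 18. In probe 1 the 5 female GnRHa left arrays lay between -1.76 and -0.94, below all 5 female control left arrays (-0.54 to 0.58), and the 5 female GnRHa right arrays lay between -0.31 and 2.09, above all 4 female control right arrays with a value (-0.87 to -0.39). In probe 2 the female GnRHa left arrays ran from -2.17 to 0.84 and overlapped the female control left arrays, which ran from -1.58 to 0.66. The fit gave GnRHa minus control in females of -1.02 ± 0.46 on the left and 1.26 ± 0.48 on the right for probe 1, against 0.17 ± 0.75 and 1.28 ± 0.90 for probe 2 (limma's adjusted p between 0.710 and 0.996 for the 4 values). Averaged over sides, neither CCR3 probe passed the threshold in any of the 6 comparisons (limma's adjusted p between 0.390 and 1.00). No neighbouring groups in the order of probe 1 means differed by more than their SD.

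IL6, a cytokine of the acute-phase and inflammatory response, was close to the limit of what these arrays measured. Male control left held 3 values, 0.76 on the Cy5 array and -0.95 and -1.59 on Cy3 arrays. Female control left held 3 values, 1.70, 1.68 and 0.64, all on Cy3 arrays. Male control right read 0.42 and -0.36, and female control right 0.78, -0.87, 0.09 and -1.25. On Cy3 arrays of the left side the control females thus lay above the control males, and no such separation showed on the right. The fit gave females minus males of 2.56 ± 0.54 on the left and -0.30 ± 0.64 on the right (limma's adjusted p = 0.932 for the right). In GnRHa animals, left arrays read 1.63, -0.69 and 0.66 in males and 0.59 and 0.57 in females, and right arrays 0.02, 0.60 and -0.89 in males and -0.50 and -0.61 in females.

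The side difference of IL6 moved with the treatment of dye. Right minus left was -2.19 ± 0.51 in the fit with the dye and -0.70 without it. Within animals IL6 was lower on the right in 3 of 3 females (-1.89, -1.60 and -1.09) and in 1 of 3 males. In these females the left sample was in Cy3 and the right in Cy5, so side and dye cannot be told apart, and the fitted dye difference of this probe rests on 1 Cy5 value in each male left group. Right against left, 0 of the 8 cytokine probes passed, against 0.201% of all probes, and 2 were at an unadjusted p below 0.05, against 12.7% of all probes. In GnRHa effects of either sex IL6 gave 0.53 ± 0.47 in males (limma's adjusted p = 0.710) and -0.52 ± 0.45 in females (limma's adjusted p = 1.00).

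MIF was named for holding back the migration of macrophages. It binds the receptor complex of CD74 and CD44, and neurons express it. Averaged over sides it barely differed between groups. GnRHa minus control was 0.02 ± 0.12 in males (limma's adjusted p = 0.965) and 0.07 ± 0.12 in females (limma's adjusted p = 1.00), and females minus males was -0.05 ± 0.12 without GnRHa (limma's adjusted p = 0.892) and -0.00 ± 0.11 with it (limma's adjusted p = 0.994). These averages cover differences of opposite direction on the 2 sides.

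The mean of MIF was higher in females on the left and higher in males on the right, in controls and in GnRHa animals. Male control left arrays read -0.15, 0.39, -0.17, 0.24 and 0.25, and female control left arrays 1.14, 0.24, 0.67, 0.98 and 0.37. Male control right arrays read 0.51, 0.71, 0.67 and 0.65, and female control right arrays -0.49, 0.17, 0.16, -0.14 and 0.07. The sexes overlapped on the left and did not overlap on the right. In GnRHa animals the female left arrays read 0.59, 0.92, 0.60, 0.93 and 1.07 and the female right arrays 0.02, 0.04, -0.05, -0.35 and 0.13. Male GnRHa arrays ran from 0.10 through a median of 0.28 to 0.80 on the left and from 0.21 through 0.45 to 0.50 on the right. The sexes overlapped on the left and did not on the right. These animals are twins of the controls and entered the choice of the genes, so they are no independent repeat. Females minus males was 0.58 ± 0.16 on the left and -0.68 ± 0.17 on the right in controls, and 0.48 ± 0.15 and -0.49 ± 0.15 in GnRHa animals. Control left passed the threshold and the other 3 did not (limma's adjusted p = 0.0963 for control right, 0.0768 for GnRHa left and 0.241 for GnRHa right). Of the 8 cytokine probes 0 passed in GnRHa left, against 2.19% of all probes, and 0 in GnRHa right, against 0.0309%.

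The difference between the sides in this sex difference was -1.26 ± 0.22 in controls and -0.97 ± 0.21 in GnRHa animals. MIF was the 1 of 8 cytokine probes past an adjusted p of 0.05 in either, with 0.998% of all probes past it in controls and 5.15% in GnRHa animals. These comparisons were added after the values were seen, and no test is drawn from them. With all 56 columns as labelled the values were -0.79 in both, and neither passed. Without the 3 turned columns they were -1.30 and -0.97, and that in GnRHa animals did not pass. Leaving out any 1 of the 41 arrays gave -1.37 to -1.14 in controls and -1.03 to -0.89 in GnRHa animals, with MIF past the threshold each time.

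The same arrays can be read within animals, which restates the group means and is no separate evidence. Right minus left was negative in 8 of 8 females, from -1.28 to -0.30, with -0.98, -0.38 and -0.30 in the 3 controls. It was 0.32, 0.66 and 0.84 in the 3 control males and ran from -0.07 to 0.36 in the 5 GnRHa males, 3 of them positive. Every female pair had the left sample in Cy3 and the right in Cy5. In the 6 males with that same arrangement of dyes, right minus left was positive in 5, with a median of 0.28, against -0.77 in the 8 females. Right minus left in males was 0.25 ± 0.13 in the fit (limma's adjusted p = 0.448). In the authors' deposited table the log2 fold change of MIF had the sign of these means in 8 of 8 groups, with 0.41 in female control left and 0.54 in female GnRHa left against -0.03 in each female right group.

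**Figure D3:**
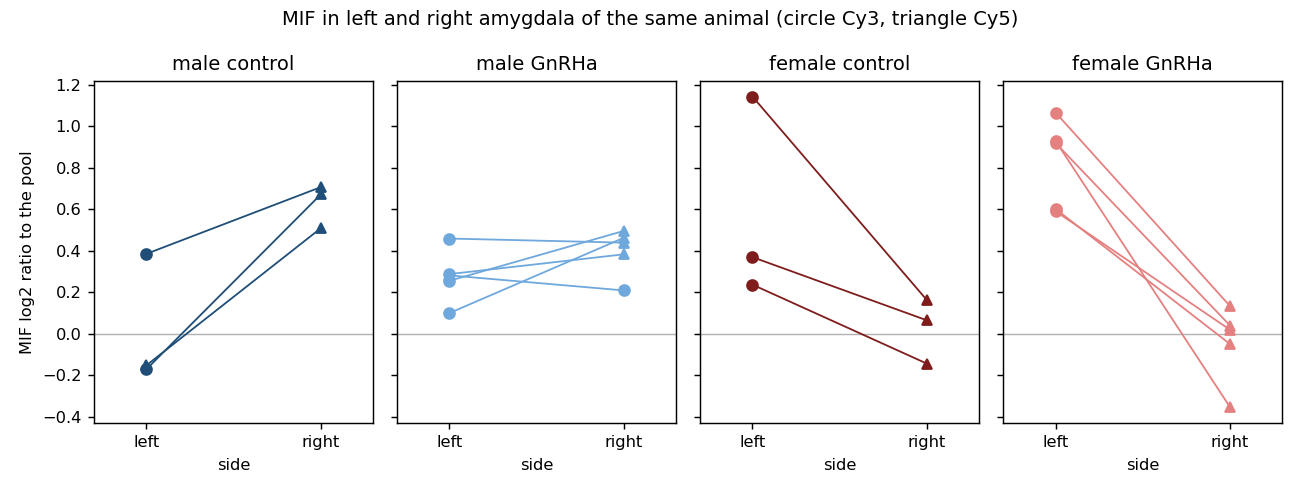
MIF log2 ratio to the pool (y axis) in the left and right amygdala (x axis) of the same animal, 1 line per animal, by sex and treatment, with circles for Cy3 and triangles for Cy5. All 8 female lines fall from left to right, and 6 of 8 male lines rise.

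On the right the 6 male GnRHa arrays of MIF (0.21 to 0.50) lay below all 4 male control arrays (0.51 to 0.71), but the difference did not pass the threshold, at -0.20 ± 0.16 (limma's adjusted p = 0.754). For GnRHa in right males 0 of the 8 cytokine probes passed, against 0.0309% of all probes. On the left the difference was 0.24 ± 0.15 (limma's adjusted p = 0.444). CXCR4, a chemokine receptor that also binds MIF, was the 1 of 5 MIF receptor and relative genes tested. It was dim, and its difference was past the threshold in 0 of the 6 comparisons (0.32 ± 0.55 for females minus males without GnRHa, limma's adjusted p = 0.850).

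TNFSF13B, also known as BAFF, keeps B cells alive. Both its probes were dim. In probe 1 the 4 female control left arrays with a value read -1.63, -0.91, -1.57 and -0.95 and the 5 female GnRHa left arrays 0.95, -0.40, -0.31, 1.25 and -0.62, without overlap. Female control right arrays read 0.17, -0.51, -0.26, 0.40 and -1.25, and female GnRHa right arrays 2.52, 2.08, -0.19 and 0.21, with overlap. GnRHa minus control in females was 1.46 ± 0.43 over both sides, and all 9 GnRHa values lay above the control mean of -0.72 ± 0.73 (SD, n = 9).

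Males went the other way on the left. Male control left arrays read 0.76, -0.10, -0.17 and 1.28, and male GnRHa left arrays -1.40, -0.24, -1.69, -1.50 and -1.67, again without overlap, a difference of -1.91 ± 0.59 (limma's adjusted p = 0.125). For GnRHa in left males 0 of the 8 cytokine probes passed, against 0.363% of all probes, and on either side of females 0 passed, against 0%. On the right the male values overlapped, with -1.17, -0.81 and 1.22 in controls and -0.53, -0.06, -0.28 and 1.77 with GnRHa, a difference of 0.66 ± 0.66 (limma's adjusted p = 0.811). Over both sides GnRHa minus control in males was -0.62 ± 0.46 (limma's adjusted p = 0.640), and the interaction was 2.08 ± 0.63. Of the 8 probes 0 passed in this interaction, against 0% of all probes, and 4 were at an unadjusted p below 0.05, against 7.70% of all probes. Nothing is read from that count either.

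Among twins on the same side, the GnRHa female was higher in 6 of 6 comparisons, by 0.32 to 2.82 with a median of 1.79. Some of these pairs are counted on both sides, so the 6 are not separate pairs. Both female twins always had the same dye. The GnRHa male was lower in 3 of 3 pairs, by -1.51, -1.29 and -0.08. TNFSF13B probe 2 had values on 27 arrays and 1 value in male control right, too few for the test. Of its 4 same-side comparisons of female twins 2 were higher and 2 lower. Probe 2 ran from 0.45 to 2.71 in female GnRHa right against 0.20, -0.56 and -1.96 in female control right, which did not overlap. On the left it overlapped in females, with means of 0.28 in controls and 0.10 with GnRHa, the reverse of the order in probe 1. In left males it overlapped too, with means of 0.90 in controls and -1.06 with GnRHa, the order of probe 1. The 2 probes had the same sign on 16 of the 24 arrays that measured both.

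**Figure D4:**
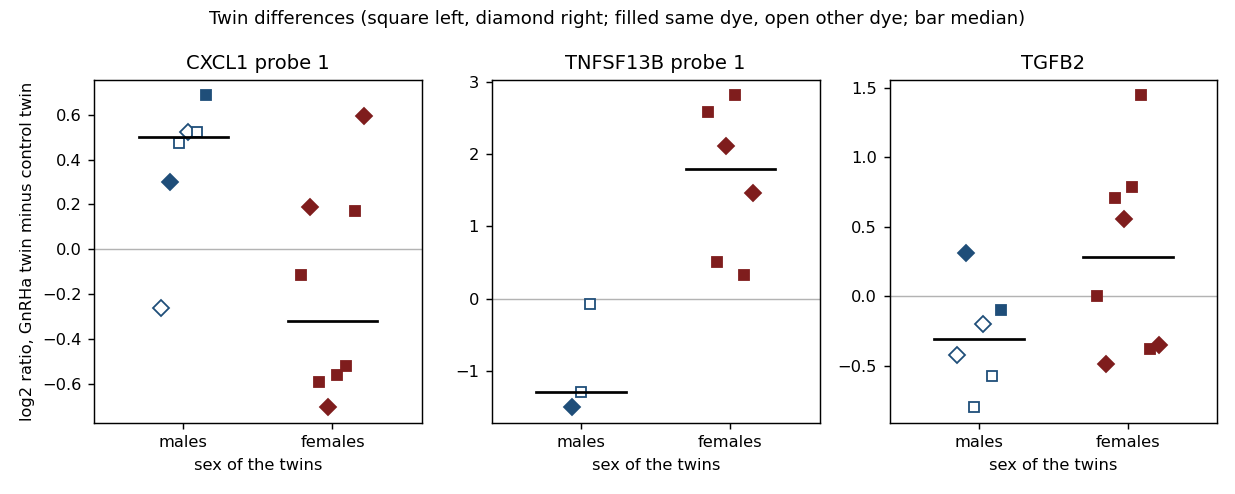
Log2 ratio of the GnRHa twin minus that of the control twin on the same side (y axis) by sex (x axis) for CXCL1 probe 1, TNFSF13B probe 1 and TGFB2, with squares for left, diamonds for right, filled symbols where both twins had the same dye and a bar at the median. For TNFSF13B all 6 female differences are above 0 and all 3 male differences below it.

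TGFB2 is a member of the transforming growth factor beta family that neurons and glia make. Its sex difference in control animals ran opposite to that of CXCL1. Male control left arrays read -0.36, 0.65, 0.56, 0.35 and 0.00, and female control left arrays -0.42, -0.87, -1.30, -1.27 and 0.09. Male control right arrays read 0.03, -0.02, 0.22 and -0.54, and female control right arrays -0.28, -0.42, -0.17, -0.34 and 0.18. On the left all 5 females lay below the male mean although the ranges overlapped, and on the right the ranges overlapped as well. Females minus males was -1.0 ± 0.24 on the left and -0.16 ± 0.25 on the right (limma's adjusted p = 0.902 for the right). Over both sides it was -0.58 ± 0.18 (limma's adjusted p = 0.105).

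With GnRHa the sexes overlapped in TGFB2 on both sides. Male GnRHa arrays ran from -0.95 through a median of -0.16 to 0.25 on the left and from -0.72 through -0.31 to -0.22 on the right. Female GnRHa arrays read -0.42, -0.16, -0.51, 0.17 and -0.29 on the left and -0.65, 0.22, -0.02, 0.31 and -0.18 on the right. GnRHa minus control was -0.41 ± 0.18 in males (limma's adjusted p = 0.336), where 11 of 12 GnRHa arrays lay below the control mean, and 0.34 ± 0.18 in females (limma's adjusted p = 1.00). With all 56 columns as labelled the value in males was 0.01. The interaction was 0.76 ± 0.25, and females minus males with GnRHa was 0.18 ± 0.17 (limma's adjusted p = 0.865). Of 6 same-side comparisons of male twins TGFB2 was lower in the GnRHa twin in 5, and of 8 in females it was higher in 5. Some pairs are counted on both sides. In the sex difference with GnRHa, 0 of the 8 cytokine probes passed, against 0.155% of all probes.

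Among untreated animals on the left side, 5 of the 8 cytokine probes were past the threshold in the sex difference, both of CXCL1, MIF and IL6 higher in females and TGFB2 lower, where 5.11% of all probes were. These differences were known when the genes were chosen, and nothing is read from the share. The count was 0 with all 56 columns or with only the 2 groups in the fit, 2 under scale normalization, 3 with array weights, 2 without male control left 3 and 1 without female control left 6. It was 5 without the 3 turned columns. MIF passed in 6 of 11 alternatives other than arrays left out, so the settings named are not all that lost a call. TYROBP, a signalling adaptor of microglia, was higher in females in the same comparison, by 0.48 ± 0.12 (limma's adjusted p = 0.0167), with 4 of the 5 microglial markers positive and a median of 0.34. There the T cell markers were positive in 4 of 4 (median 0.53), the endothelial markers negative in 3 of 3 (-0.75) and the astrocyte markers negative in 3 of 4 (-0.07), and 0 of these passed. The part of these cells in the 5 differences was not tested.

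**Figure D5:**
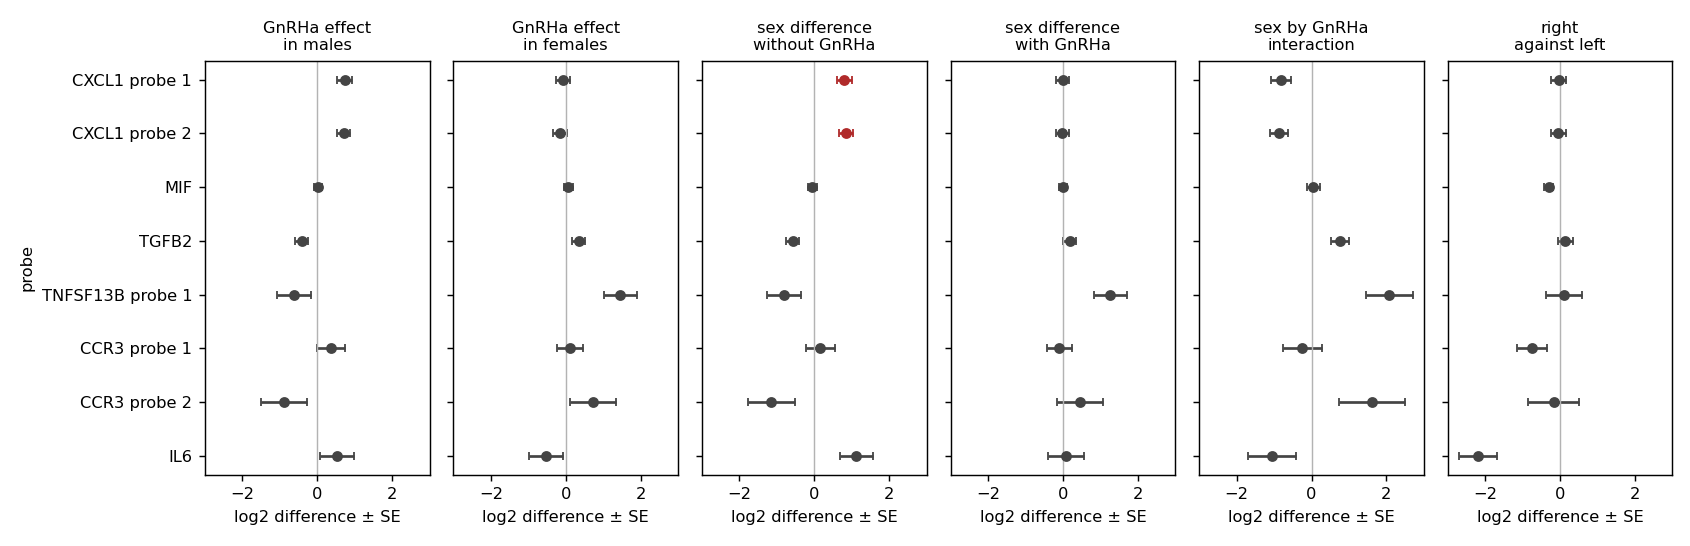
Log2 difference ± SE (x axis) of each tested cytokine probe (y axis) in the 6 comparisons over both sides, sexes or treatments, with red for the probes past an adjusted p of 0.05. The CXCL1 and TGFB2 points lie on opposite sides of 0 in each comparison. For GnRHa in females, females minus males with GnRHa and right against left, the CXCL1 points lie within their SE of 0. The error bars of IL6, CCR3 and TNFSF13B are the widest.

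Across the 41 arrays, after the fitted dye difference was taken out, CXCL1 and TGFB2 had a Pearson r of -0.61, and of -0.49 after the group means were taken out as well. The arrays share the pool and, in pairs, the animal, so this is a description. MIF had an r of 0.04 with CXCL1 and -0.27 with TGFB2, and of -0.10 and 0.06 after the group means were taken out. Of the named genes outside these 6, EEF1D, a subunit of a translation elongation factor, and the integrin ITGB5 were most like CXCL1, with r of 0.74 and 0.71 over 41 arrays. The actin-binding protein gene CFL1 and the protease gene CAPN1 were most like MIF, at 0.84 and 0.82. The integrin ITGAV and the angiogenic factor gene AGGF1 were most like TGFB2, at 0.63 and 0.60. For the dim probes the highest r were lower or over fewer arrays, with the adenosine receptor gene ADORA3 (0.54, 34 arrays) and NFKB (0.53, 30 arrays) for TNFSF13B and the pancreatic polypeptide gene PPY (0.65, 34 arrays) and the BMP antagonist gene CHRD (0.61, 30 arrays) for CCR3. IL6 had too few arrays for this. With the group means taken out as well, the r of these genes, in the order named, were 0.60 and 0.58 for CXCL1 and 0.76 and 0.64 for MIF. They were 0.48 and 0.44 for TGFB2, 0.49 and 0.49 for TNFSF13B and 0.64 and 0.46 for CCR3.

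Genes of the same pathways were read from fixed lists, by their brightest probe. Of 49 other chemokine and chemokine receptor genes 7 were tested, and 0 passed in any of the 6 comparisons; CXCL10, an interferon-induced chemokine, stood at 2.13 ± 0.53 for females minus males with GnRHa (limma's adjusted p = 0.0796). Of 28 interleukin and colony-stimulating factor genes 13 were tested and of 31 genes of the tumour necrosis factor superfamily 5, and 0 of either passed. IL1A, an alarm cytokine, stood at 0.97 ± 0.41 for GnRHa in females (limma's adjusted p = 1.00), and FAS, a death receptor, at 0.82 ± 0.49 for females minus males without GnRHa (limma's adjusted p = 0.447). The list of the IL6 receptor, its relatives and their signalling genes had 0 tested members of 17.

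Of 36 genes of transforming growth factor beta and activin signalling 21 were tested. INHBA, a subunit of activins and inhibins, was the 1 that passed in the 6 comparisons. It was lower in females without GnRHa by -1.08 ± 0.25 (limma's adjusted p = 0.0323), where 1.04% of all probes passed. Of the 21 genes 9 were positive and 12 negative there, with a median of -0.03 against 0.01 over all 742 named genes tested. On the left side of untreated animals the activin receptor ACVR2A (-1.06 ± 0.24) and the signal transducer SMAD5 (-0.98 ± 0.26) were lower in females and the inhibin subunit INHA (0.90 ± 0.23) was higher, with limma's adjusted p of 0.0132, 0.0232 and 0.0215. In that comparison 5.11% of all probes passed. Of 32 genes of NF-kB signalling and inflammation 18 were tested and 0 passed. For females minus males, 6 were positive and 12 negative without GnRHa, with a median of -0.16, and 14 positive and 4 negative with it, with a median of 0.20. NFKBIA, an inhibitor of NF-kB, had the lowest p among them for females minus males both without GnRHa (0.53 ± 0.15, limma's adjusted p = 0.0660) and with it (0.45 ± 0.14, limma's adjusted p = 0.242).

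Which arrays entered the authors' deposited fold changes against the pool is not given in the sources used here. In the authors' deposited table CXCL1 probe 1 stood at -0.58 in male control left and -0.61 in male control right and between -0.21 and 0.08 in the other groups. Probe 2 stood at -0.65 and -0.19 in these male control groups and between -0.18 and 0.15 in the others. Its male control right value thus lay close to that of female GnRHa left. For the dim probes the authors' deposited table was near 0 where the means here were not: it ran from -0.08 to 0.08 for TNFSF13B probe 1 and from -0.21 to 0.05 for IL6 over the 8 groups, while the group means of the arrays used ran from -1.30 to 1.16 and from -0.59 to 1.34. Both genes had the same sign in the authors' deposited table and in these means in 3 of 8 groups, CXCL1 probe 1 and TGFB2 in 6.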

How the data were processed

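The labels describe total RNA extracted with Trizol, labelled in Cy3 or Cy5 with dyes swapped between arrays, and hybridised to 2-colour Agilent arrays against the pool; Feature Extraction 9.1 of Agilent is named in the submitters' processing notes. The values analysed are the deposited log2 ratios; the log2 fold change per group and mean log2 brightness are the authors', per the file headers. Background correction, normalization and ratio direction are not given in the sources used here. Direction was taken as sample over pool: the probe with the largest sex difference stood at -3.51 in females and 0.85 in males, and read the other way females would stand 11.4-fold above a pool that holds their own RNA. Columns with an absolute spike-in slope under 0.5 (15 of 56, at most 0.208, against 1.13 to 1.26 in the 41 used) were left out, and 3 with negative slopes (spike-in correlations with the median of the other columns of -0.995) were multiplied by -1 and given the opposite dye. Names came from RefSeq accessions or the files, for 1446 of 15008 probes.

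limma 3.58.1 in R 4.3.3 fitted 8 group means and dye, with animal as random block (within-animal correlation 0.147), over 12930 probes with at least 2 values in each group; p-values are two-sided, adjusted by Benjamini and Hochberg over these probes, with a threshold of 0.05. The fit was tested on simulated data. Within a group, replicates are separate animals per the labels. Of the 25 animals used, 16 gave both sides, so an n over both sides counts arrays. Twins are paired per the labels. Over 14 same-side comparisons from 10 twin pairs, the correlation of twins' deviations from their group means ran from -0.10 to 0.25, with 6 above 0.1. The comparisons are GnRHa minus control in each sex, females minus males with and without GnRHa, their interaction, right minus left, and these within sides. The genes named are all probes of the 6 members, the 2 most alike genes of each member by correlation over at least 30 arrays, and from each list those past the threshold or of lowest p, not all of which are printed. The members and lists were chosen with earlier results of these data known. Alternatives covered the columns used, normalization, probe filter, dye, block, array weights and each array left out. Figures and summaries used Python 3.11.15.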

Additional observations from a re-analysis of the deposited data

Results flagged for a closer look

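Within 56 groups of 4 to 6 values, 7 had an array far from the others by Dixon's ratio at the 95% level, and chance gives about 5% of groups. CXCL1 read 0.88 (probe 1) and 0.94 (probe 2) in female control right 4, and -0.24 in female GnRHa right 3 (probe 2). CCR3 probe 1 read -0.81 in male GnRHa left 3 and 0.58 in female control left 6. TNFSF13B probe 1 read -0.24 in male GnRHa left 2, and TGFB2 read -0.72 in male GnRHa right 7. The sex difference of MIF differed between the sides, right minus left, by -1.26 ± 0.22 in control and -0.97 ± 0.21 in GnRHa animals, a comparison added after the values were seen.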

How the results depend on the processing

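No alternative turned the direction of a cytokine probe that it or the reported fit called. For the sex difference without GnRHa, the count of cytokine probes past the threshold (2) was 0 with all 56 columns as labelled, 1 under scale normalization, 0 with only the groups compared, and 0 to 3 with 1 array left out. For the GnRHa effect in males (0) it was 1 with the twin pair as random replicate block, 1 with array weights, 2 on left arrays of Cy3 and right arrays of Cy5 only, and 0 to 2 with 1 array left out. For right against left (0) it was 1 without a dye term, where MIF stood at -0.25. For the sex difference in control left (5), with alternatives chosen after seeing the data, it was 0 with all 56 columns, 2 under scale normalization, 3 with array weights, 0 with only the groups compared, and 1 to 5 with 1 array left out. In control left MIF passed in 6 of 11 alternatives other than arrays left out and IL6 in 6 of 10. The settings named for control left are thus not all that lost a call. The replicate block of twin pairs changed no other call of a member. Over all probes the count of 134 for the sex difference without GnRHa was 2 with all 56 columns, 77 without the 3 turned columns, 29 under scale normalization, 2 with only the groups compared, 252 with array weights, 246 without the animal block and 288 on left Cy3 and right Cy5 arrays. For the GnRHa effect in males (0) it was 62 with the twin pair as random block, 6 with it as fixed block, 42 with no block, 94 with array weights, 9 under scale normalization and 62 on left Cy3 and right Cy5 arrays. Over the alternatives and arrays left out, the other counts over all probes ran from 3 to 78 for the sex difference with GnRHa (20), 0 to 929 in control left (661), 0 to 100 in control right (10), 8 to 1897 in GnRHa left (283), 0 to 43 in GnRHa right (4), 0 to 619 and 0 to 1755 for sex by side in control (129) and GnRHa animals (666), and 0 to 142 for GnRHa in left males (47). Right against left (26) was 0 with all 56 columns and 557 without a dye term. The causes were not tested.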
